A study of Mus musculus with 73 samples.

Results

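The adrenal glands of aged male mice with a Znrf3 knockout in the cortex were compared with those of male controls at 78 weeks, in 8 of the 73 RNA sequencing libraries of the study (4 control and 4 Znrf3 cKO). Members were the XY libraries of that age: PRVL74, PRVL75, PRVL76 and PRVL77 from controls, and PRVL78, PRVL79, PRVL80 and PRVL81 from Znrf3 cKO. Values are given in this order throughout. In Znrf3 cKO mice (Sf1-Cre;Znrf3 F/F), the regulatory regions of Sf1 drive a Cre recombinase that acts in steroidogenic cells and deletes exons for the RING domain of ZNRF3. Controls were wild-type littermates. Both were on a C57Bl/6 background, with an mTmG reporter in the breeding for most experiments of the study, and RNA came from whole glands, so that medulla, capsule, vessels, immune cells and any fat left on the gland were sequenced along with the cortex. Whether the libraries of a group stem from different mice is not given in the sources used here, and the p-values therefore describe variation among libraries, part of which may be technical. The study followed both sexes from 4 to 78 weeks and asked at this late age whether phagocytic macrophages remained in male knockout glands. The 4 columns listed as female Znrf3 cKO of the same age hold the same values as the 4 male columns at all 54838 genes, and they were not used. In the male columns Xist, the RNA of the inactive X, was at 0.057 RPKM or below, and the Y-linked Ddx3y was at 9.17 to 32.0 RPKM.

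ZNRF3 is a membrane ubiquitin ligase that removes Frizzled receptors from the cell surface and so limits WNT signalling, which maintains the outer adrenal cortex. The cortex makes aldosterone in the zona glomerulosa and glucocorticoid in the zona fasciculata from cholesterol, and the medulla makes catecholamines. Macrophages that engulf dying cells signal through TREM2 and its adaptor TYROBP and through receptors such as MERTK. When they take up lipid or fuse into multinucleated cells they switch on genes of lysosomal acidification and lipid handling that osteoclasts also use.

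PRVL74 and PRVL78 stood apart from the other 6 libraries. Over the 20675 genes tested, Spearman's correlation was 0.841 to 0.932 in the 13 pairs with either of these and 0.94 to 0.981 in the other 15 pairs. PRVL74 lay above all other libraries by more than 1 log2 unit at 1076 genes and PRVL78 at 672, against 0 to 68 in each of the other 6. Depth did not set them apart, with 40.4 and 43.3 M reads in a range of 34.6 to 46.6. In PRVL74 the RPKM values summed to 889905, against 441750 to 552993 elsewhere, pseudogenes, microRNA and ribosomal RNA loci held 24.6% of reads against 13.5 to 18.4%, and coding genes with transcripts up to 1 kb were above the other controls by a median of 0.80 log2 units, whereas those over 8 kb differed by -0.36. PRVL74 was also rich in medulla transcripts, with Pnmt, the enzyme that makes adrenaline, at 1103 RPKM against 75.9 to 109 in the other controls. PRVL78 was low in steroidogenic transcripts and held some liver transcripts. Its Star value was 32.9 RPKM and its Alb value, for serum albumin, was 67.1, against 0.246 or below in all other libraries. The part of these features in the group differences was not tested. The counts over all genes, and most list counts that change, are therefore also given without both libraries.

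**Figure D1:**
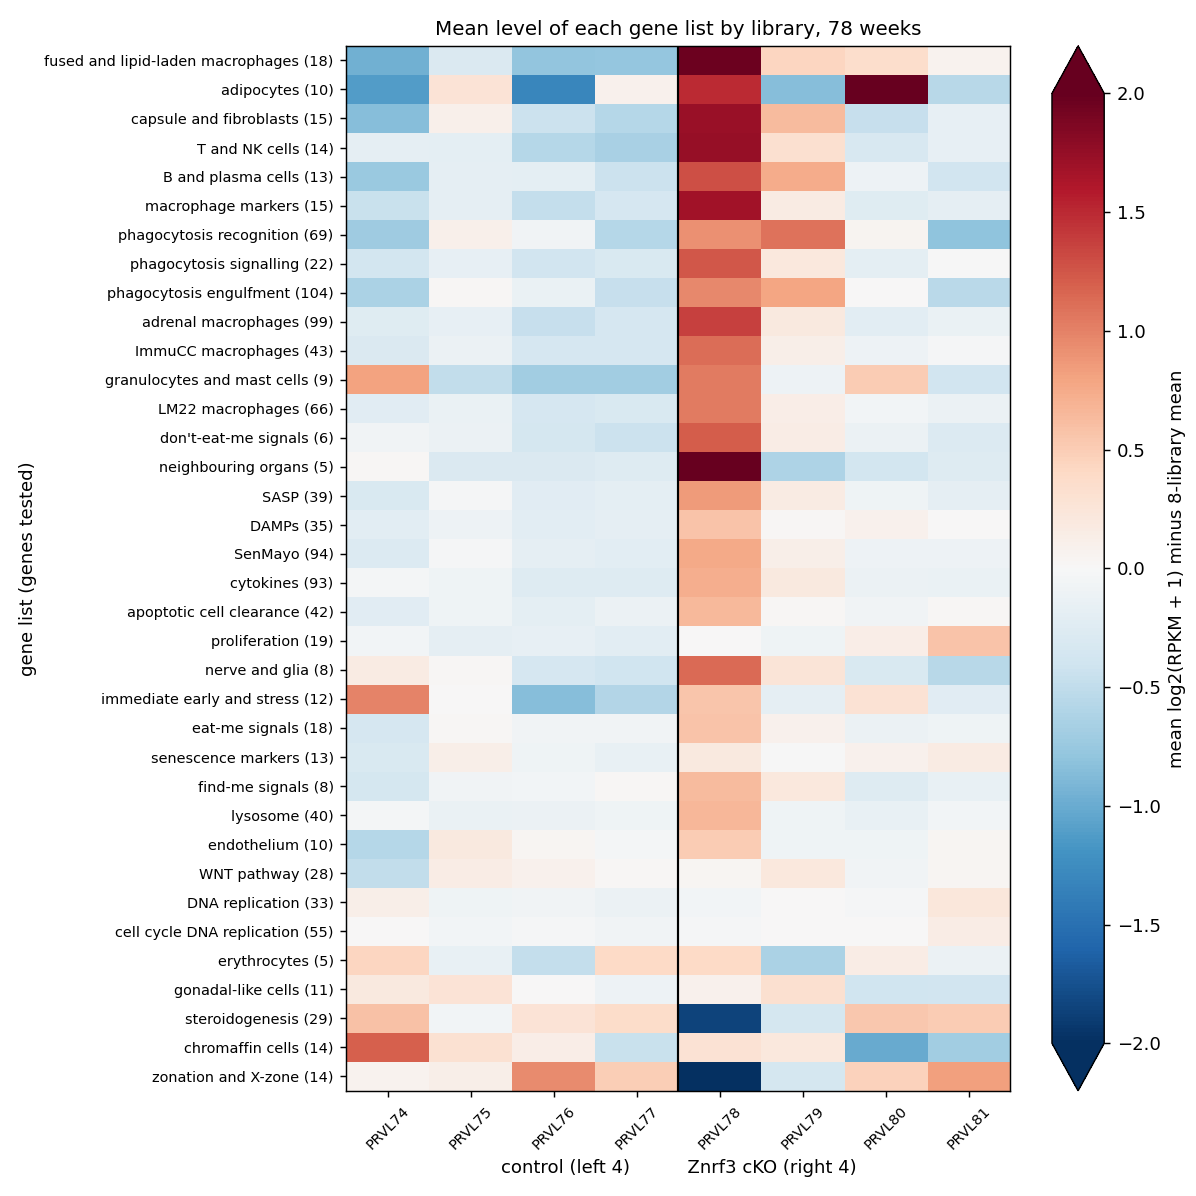
Mean log2(RPKM + 1) of 36 gene lists (rows, with the number of genes tested) in each of the 8 libraries (columns), shown as the difference from the mean of all 8; red is above and blue below. PRVL78 is far above the rest for macrophage, lymphoid, fibroblast and neighbouring organ lists and far below for steroidogenic ones. For fused and lipid-laden macrophages the 4 Znrf3 cKO libraries (3.859 to 5.738) all lie above the 4 controls (2.823 to 3.498).

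No gene passed the test at 78 weeks. With limma on log2(RPKM + 1), 0 of 20675 genes (0%) had an adjusted p under 0.05 after Benjamini-Hochberg adjustment, and the smallest was 0.117. At an unadjusted p under 0.05 there were 1118 genes (5.41%), 652 higher (3.15%) and 466 lower (2.25%) in Znrf3 cKO. The voom method of limma on recovered whole reads also called 0 genes, with 1237 at an unadjusted p under 0.05. One fit that pooled the spread over all 33 male libraries called 312 of 21635 genes (1.44%), 170 higher (0.786%) and 142 lower (0.656%). That fit assumes that the old glands vary like the young ones, whereas the median SD within groups was 0.309 log2 units in these 8 libraries and 0.178 in the 25 male libraries of 4, 6 and 12 weeks. Without PRVL74 and PRVL78, the fit over the 8 libraries again called 0 genes (1957 at an unadjusted p under 0.05), and the fit over all males called 209, of which 93 were among the 312.

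The groups are therefore described by their separate values. At 466 genes (2.25%) all 4 Znrf3 cKO libraries were above all 4 controls, and at 421 (2.04%) all 4 were below. Without PRVL74 and PRVL78, with 3 libraries a group, these were 1725 (8.34%) and 1673 (8.09%). The median log2 fold change of all genes was -0.03. Scaling each library to the same sum of RPKM, which divides PRVL74 by 1.67, moved that median to 0.08 and the counts to 414 higher and 135 lower. Counts in the lists below are of genes whose libraries did not overlap between groups. They are to be set against the shares of all genes, 2.25% above and 2.04% below, or 8.34% and 8.09% without PRVL74 and PRVL78.

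The list of fused and lipid-laden macrophages came from general knowledge and was chosen with earlier results of these data known. Its count is therefore no independent test. Among its transcripts, 8 of 18 were higher in all 4 Znrf3 cKO libraries than in any control. These were Gpnmb, Atp6v0d2, Lgals3, Fabp5, Spp1, Trem2, Tyrobp and Lipa, while 0 lay below and 10 overlapped, and the median log2 fold change was 1.26. The count was also 8 without PRVL74 and PRVL78, where 8.34% of all genes lay above, with a median of 0.76, and 7 after scaling to the same sum. The summed level was 279 to 324 RPKM in controls and 408 to 1632 in Znrf3 cKO.

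Gpnmb, a glycoprotein of lysosome-rich macrophages and osteoclasts, was at 0.493, 3.68, 0.874 and 0.330 RPKM in controls and at 303, 37.4, 19.3 and 14.5 in Znrf3 cKO. The lowest knockout library was thus well above the highest control, and PRVL78 held the highest value by far. The log2 fold change was 4.42 ± 0.88 (SE), with an adjusted p of 0.679 in limma and of 0.0055 in the fit over all males, and it was 3.34 without PRVL74 and PRVL78. The gene lies on chromosome 6 at 49036546 to 49070929 (mm10). Atp6v0d2, the proton pump subunit that osteoclasts and some macrophages use, was at 0.228, 2.59, 0.752 and 0.198 in controls and 55.2, 10.96, 5.24 and 5.37 in Znrf3 cKO. As for Gpnmb, PRVL75 was highest among controls and PRVL78 among knockouts, and the groups did not overlap. The log2 fold change was 2.87 ± 0.70 (adjusted p = 0.866 in limma, 0.028 in the fit over all males).

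Lgals3, which encodes the glycan-binding galectin-3, was at 11.1, 14.9, 7.61 and 7.51 RPKM in controls and 257, 55.3, 37.0 and 40.8 in Znrf3 cKO (log2 fold change 2.67 ± 0.58, adjusted p = 0.816 in limma). Fabp5, a fatty acid carrier, was at 5.29, 10.0, 3.42 and 6.79 against 117, 20.0, 36.3 and 16.2. Spp1, the secreted phosphoprotein osteopontin, was at 3.56, 13.5, 11.6 and 13.1 against 59.0, 20.3, 24.9 and 40.0. For these genes the knockout libraries other than PRVL78 were above controls as well, by a smaller margin. Lipa, the lysosomal acid lipase that frees cholesterol from its esters, was at 21.9, 25.6, 43.7 and 31.3 in controls and 64.9, 46.7, 79.9 and 52.9 in Znrf3 cKO. Lipa was highest in PRVL80 rather than PRVL78, and it was called in the fit over all males (adjusted p = 0.022).

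Not every gene of the list separated. Mmp12, the macrophage elastase, was at 0.470, 4.31, 1.54 and 2.13 RPKM in controls and 11.6, 4.54, 2.89 and 2.12 in Znrf3 cKO, so the groups overlapped. Ctsk and Acp5, a protease and a phosphatase typical of osteoclasts, overlapped by a single library each. Ctsk was at 2.88 to 7.39 in controls and 7.13 to 26.8 in Znrf3 cKO, and Acp5 was at 3.98 to 10.1 and 9.70 to 41.3. Cd9 and Cd63, membrane proteins of many cell types, did not separate, with 48.3 to 99.05 and 44.0 to 147 RPKM for Cd9.

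**Figure D2:**
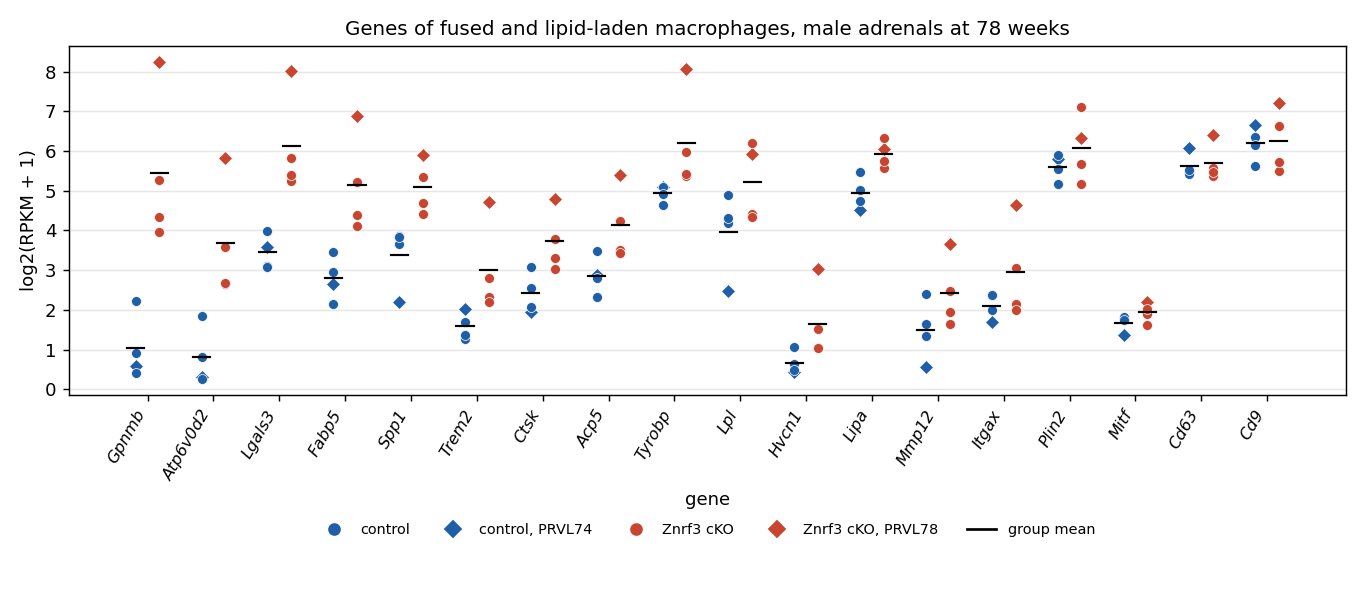
Level in log2(RPKM + 1) of the 18 genes of fused and lipid-laden macrophages in each library; blue points are controls, red points Znrf3 cKO, diamonds mark PRVL74 and PRVL78, and bars are group means. From the left, Gpnmb, Atp6v0d2, Lgals3, Fabp5, Spp1 and Trem2 show red points wholly above blue points, and toward the right Cd63 and Cd9 overlap.

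General macrophage markers were less clearly separated. Of 15 tested, 2 lay above all controls (Cd68 and Cd163), with a median log2 fold change of 0.61 that was 0.16 without PRVL74 and PRVL78. Cd68, a lysosomal protein of macrophages, was at 8.41, 15.8, 7.85 and 9.15 RPKM in controls and 169, 35.3, 19.1 and 22.9 in Znrf3 cKO (log2 fold change 1.93 ± 0.62, adjusted p = 0.866 in limma and 0.047 in the fit over all males). Adgre1, which encodes the surface protein F4/80, was at 2.25, 4.20, 4.89 and 5.13 against 23.8, 5.18, 3.65 and 3.98. Itgam, for the integrin CD11b, was at 0.412, 0.778, 0.587 and 0.632 against 2.31, 0.983, 0.740 and 1.35. Outside PRVL78, Adgre1 lay within or near the control range while Cd68 did not. Lyz2, the abundant lysozyme of myeloid cells, reached 2747 in PRVL78 and was 181 to 304 in the other knockouts against 93.9 to 183 in controls. In whole glands a change in the number of macrophages and a change in RNA per macrophage cannot be told apart.

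Among 22 genes of phagocytosis signalling from the study, 5 lay above all controls (Timd4, Cd300lb, Tyrobp, Trem2 and Lgals3) and 0 below, with a median log2 fold change of 0.54. The count was also 5 without PRVL74 and PRVL78, where the share over all genes was 8.34% in place of 2.25%, and the median was 0.11. Trem2, a lipid receptor of macrophages, was at 3.07, 2.23, 1.40 and 1.58 RPKM in controls and 25.2, 5.95, 4.03 and 3.59 in Znrf3 cKO (log2 fold change 1.42 ± 0.51, adjusted p = 0.866 in limma). Tyrobp, its signalling adaptor, was at 33.2, 33.4, 23.8 and 29.2 against 267, 62.2, 40.2 and 42.1. Both were above the controls in each knockout library. The receptors Mertk and Axl and the bridging protein Mfge8 overlapped. Mertk was at 2.81, 6.84, 4.50 and 4.34 in controls and 13.8, 11.02, 5.34 and 6.64 in Znrf3 cKO, Axl at 10.96, 22.0, 19.0 and 18.5 against 61.4, 29.2, 16.4 and 18.3, and Mfge8 at 26.0, 23.2, 24.8 and 29.1 against 136, 26.6, 29.2 and 38.3. For Mfge8 the overlap came from PRVL79 alone, and for Mertk from PRVL80 and PRVL81.

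On the ImmuCC macrophage list 14 of 43 genes lay above all controls, on the LM22 list 12 of 66, and on the list of adrenal macrophages 8 of 99, with 1 below (Mmp13). Without PRVL74 and PRVL78 these counts were 15, 16 and 18, with 1, 2 and 1 below. Over all genes 2.25% lay above and 2.04% below, and 8.34% and 8.09% without both libraries. Apoptotic cell clearance gave 6 of 42 above and 1 below, damage-associated signals (DAMPs) 4 of 35, eat-me signals 1 of 18 (C3), find-me signals 0 of 8 and don't-eat-me signals 0 of 6, and without both libraries 9 (3 below), 8, 1 (2 below), 0 and 1. Once antigen receptor genes were set aside, engulfment gave 4 of 53 above and 1 below (8 and 6 without both libraries) and recognition 2 of 18 above and 1 below (2 and 3). Lysosomal genes mostly overlapped, Ctsl and Man2b1 being among those above all controls, with a median of 0.13 (-0.04 without PRVL74 and PRVL78) and, outside PRVL78, mean levels of 4.69 to 4.78 log2 units in Znrf3 cKO against 4.69 to 4.79 in controls. Ctsl, the lysosomal protease cathepsin L, was at 29.4, 33.7, 29.3 and 26.3 RPKM in controls and 159, 42.6, 37.2 and 39.1 in Znrf3 cKO. The lists share many genes with each other.

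Other genes also lay above all controls, and C3, Anxa1 and Wfdc17 among them are members of the lists counted above. Apoc1, a small apolipoprotein, was at 12.3, 11.5, 1.65 and 7.09 RPKM in controls and 45.01, 170, 40.1 and 52.4 in Znrf3 cKO, with PRVL79 rather than PRVL78 highest (log2 fold change 3.06 ± 0.61, adjusted p = 0.679 in limma). Slpi, a secreted inhibitor of leukocyte proteases, was at 6.57, 4.55, 3.44 and 5.36 against 26.6, 21.8, 14.9 and 12.2. It had the smallest unadjusted p among named genes that were higher (1.34e-04, adjusted p = 0.571 in limma, log2 fold change 1.70 ± 0.26). The spread among the 4 knockouts was narrow for Slpi, and the fold change was 1.64 without PRVL74 and PRVL78. Retnla, a secreted product of alternatively activated macrophages and of fat, was at 2.22, 8.08, 6.85 and 8.14 in controls and 99.5, 22.1, 29.7 and 20.3 in Znrf3 cKO. C3, the central complement protein, was at 14.1, 32.7, 27.0 and 24.4 against 490, 54.4, 104 and 49.9. Retnla and C3 were highest in PRVL78, followed by PRVL80. Anxa1, a phospholipid-binding protein that restrains inflammation, was at 4.42 to 10.3 in controls and 15.4 to 88.7 in Znrf3 cKO, and Wfdc17 was at 1.44 to 5.91 and 6.33 to 68.2.

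Ccl21a and Ccl21b, near-identical genes for the chemokine that draws T cells and dendritic cells to lymphatics, cannot be read apart with certainty. Ccl21a was at 7.11, 10.9 and 2.27 RPKM and listed at 0 in the controls and at 363, 65.9, 15.6 and 18.5 in Znrf3 cKO, and Ccl21b was at 10.3 or below and at 12.5 to 179. Pnpla3, a lipase of lipid droplets, was at 0.819, 6.26, 1.14 and 6.16 against 35.7, 7.51, 43.7 and 9.26, and Clec3b, a plasma and matrix protein, was at 3.74 to 10.46 and 11.9 to 138. Pnpla3 was high in the same libraries as the fat markers described below. Igkv4-91, an immunoglobulin segment, was at 0.086 to 4.08 in controls and 5.02 to 22.7 in Znrf3 cKO.

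Of 13 B and plasma cell genes 4 lay above all controls (Cd79a, Cd79b, Ighm and Cd22), and of 14 T and NK cell genes 2 did (Cd2 and Il7r), with 0 below in both lists, and these 6 genes were highest in PRVL78. The counts were 4 and 4 without PRVL74 and PRVL78, where 8.34% of all genes lay above in place of 2.25%. Trbc2, a constant segment of the T cell receptor and one of the most abundant members, overlapped at 6.03, 4.16, 2.33 and 2.26 RPKM in controls and 54.0, 12.5, 4.57 and 4.65 in Znrf3 cKO. Cd4, the coreceptor of helper T cells, was at 0.446 or below against 27.5, 2.48, 0.3995 and 0.744. Cd79b, a part of the B cell receptor, was at 0.540, 1.01, 0.967 and 1.39 RPKM in controls and 5.91, 2.16, 1.69 and 2.25 in Znrf3 cKO. Il7r, the receptor for interleukin-7, was at 0.451, 1.30, 0.652 and 0.499 against 11.1, 3.43, 1.79 and 1.96. Of the immunoglobulin light chain genes named, Igkv4-91 lay above all controls as given above, whereas the constant segment Igkc did not follow genotype. Igkc was at 576, 849, 893 and 377 in controls and 2515, 4129, 847 and 168 in Znrf3 cKO. PRVL79 held the highest Igkc and PRVL81 the lowest of all 8. In PRVL79 the heavy chain segment Ighv1-54 reached 117 RPKM against 3.03 or below in every other library, the widest gap above the rest in that library.

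Steroidogenic transcripts were split between knockout libraries. Of 29 genes tested, 28 overlapped and 1 (Cyp17a1, at 1.14 RPKM or below in every library) lay below all controls. The median log2 fold change was -0.47, and 0.11 without PRVL74 and PRVL78, so its sign rested on these 2 libraries. Without them 6 genes lay above all controls and 1 below, where 8.34% and 8.09% of all genes did. After scaling to the same sum 4 lay above and 2 below. The summed level was 20700, 9573, 15250 and 18250 RPKM in controls and 1033, 7359, 15960 and 16840 in Znrf3 cKO. PRVL80 and PRVL81 were thus within the control range, PRVL79 was below it (7359 against 9573 in the lowest control), and PRVL78 held a small fraction.

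Star, the protein that moves cholesterol into mitochondria, was at 2238, 956, 1533 and 2029 RPKM in controls and 32.9, 474, 1312 and 1484 in Znrf3 cKO. Cyp11a1, which cleaves the cholesterol side chain, was at 1185, 620, 957 and 1102 against 36.3, 335, 678 and 929. Cyp21a1, the 21-hydroxylase, was at 5416, 2363, 3026 and 3697 against 149, 1430, 3822 and 2953. In each case PRVL78 was lowest and PRVL79 next. Hsd3b1 showed no such gap outside PRVL78, at 3061 to 6028 in controls and 383, 3398, 6370 and 6070 in Znrf3 cKO. Akr1b7, a detoxifying reductase of the zona fasciculata, spread most, at 2107, 617, 1287 and 1288 against 10.3, 109, 462 and 2030, from far below to near the top of the control range. Scarb1, the receptor that takes up cholesterol from lipoproteins, was at 199, 88.6, 140 and 176 in controls and 8.49, 16.6, 66.2 and 90.1 in Znrf3 cKO. It overlapped through a single library and was called in the fit over all males (adjusted p = 0.020). Srd5a2, a steroid 5-alpha-reductase, was at 270, 137, 320 and 609 in controls and 1.35, 48.0, 99.3 and 156 in Znrf3 cKO.

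The zonal genes did not separate, with 0 of 14 above or below (1 each without PRVL74 and PRVL78). Cyp11b2, the aldosterone synthase of the zona glomerulosa, was at 275, 196, 440 and 543 RPKM in controls and 7.48, 157, 327 and 341 in Znrf3 cKO, and Cyp11b1, which makes corticosterone in the zona fasciculata, was at 1363, 529, 1394 and 1973 against 20.3, 502, 1248 and 1135. Both transcripts were lowest in PRVL78. Nr5a1, which encodes SF1 itself, was at 261, 71.4, 68.5 and 67.5 in controls and 10.8, 96.3, 240 and 208 in Znrf3 cKO, so that PRVL74 was alone among controls at the level of PRVL80 and PRVL81. Akr1c18, a marker of the X-zone and of progesterone breakdown, was at 3.82, 0.735, 138 and 3.63 in controls and 0.530, 0.192, 7.52 and 14.5 in Znrf3 cKO. The control PRVL76 thus stood alone, and the other X-zone marker Pik3c2g was also highest there, at 0.535 RPKM against 0.0741 or below.

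**Figure D3:**
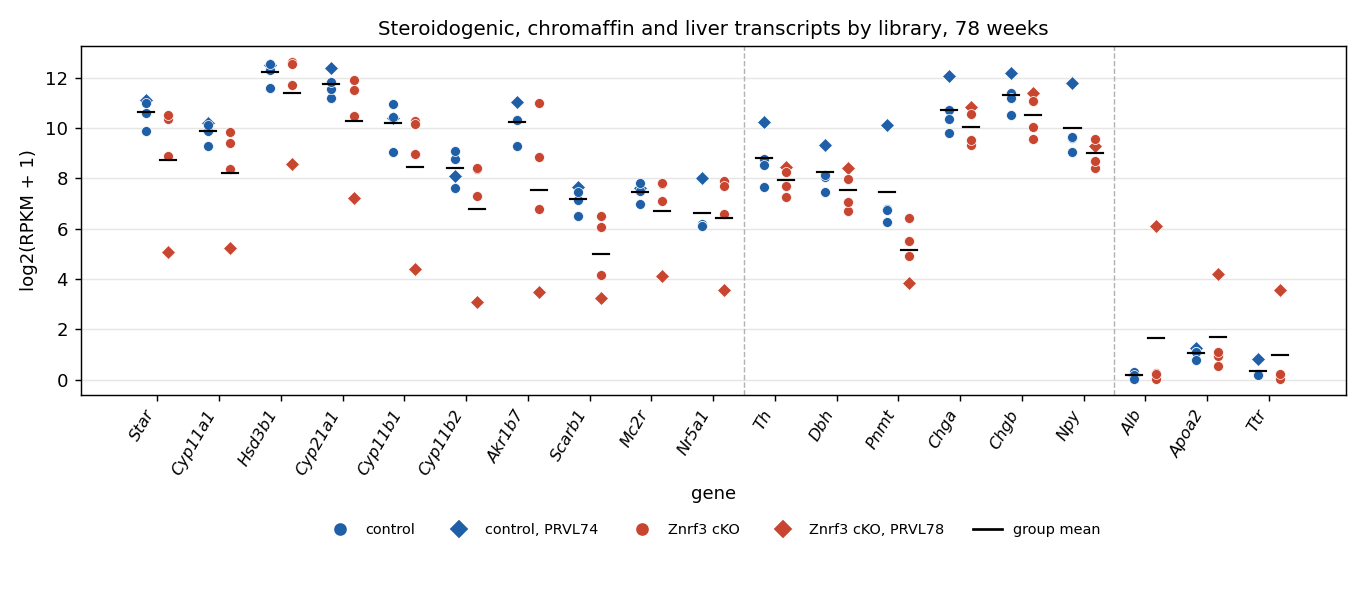
Level in log2(RPKM + 1) of genes of steroidogenesis (left block), chromaffin cells (middle) and liver (right) in each library; blue points are controls, red points Znrf3 cKO, diamonds mark PRVL74 and PRVL78, and bars are group means. The red diamond (PRVL78) is lowest for each of the steroidogenic genes plotted and alone high for Alb, Apoa2 and Ttr, and the blue diamond (PRVL74) is highest for each of the chromaffin genes plotted.

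Kcng4, a modifier subunit of voltage-gated potassium channels, was at 2.90, 2.94, 3.15 and 3.54 RPKM in controls and 0.414, 0.486, 0.822 and 0.859 in Znrf3 cKO, lower in all 4. Both groups were tight, and PRVL74 and PRVL78 lay with their groups. The log2 fold change was -1.34 ± 0.14, with the smallest adjusted p of all genes (0.117 in limma, 0.202 in voom, 6.47e-05 in the fit over all males), and it was -1.29 without PRVL74 and PRVL78. Kcng4 was the single gene called when libraries were weighted by their quality in limma (adjusted p = 0.013). The gene lies on chromosome 8 at 119623854 to 119635680 (mm10).

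Htr3a, an ion channel gated by serotonin, was at 9.29, 8.26, 8.41 and 8.56 RPKM in controls and 0.899, 2.17, 3.82 and 3.04 in Znrf3 cKO (log2 fold change -1.55 ± 0.26, adjusted p = 0.679 in limma). Kcnk1, a potassium leak channel, was at 9.28, 10.2, 14.7 and 17.2 against 1.21, 5.91, 5.09 and 2.95. Scgn, a calcium sensor of endocrine cells, was at 14.6, 3.49, 2.94 and 2.75 against 0.0847, 0.519, 0.651 and 0.910. All 3 passed in the fit over all males (adjusted p of 0.0203, 0.0017 and 0.0024). Cited1, a transcriptional co-regulator, was at 7.26, 11.6, 12.8 and 7.77 in controls and 1.45, 4.72, 4.15 and 2.37 in Znrf3 cKO. Tmem35a, a chaperone of nicotinic receptors that is abundant in the adrenal, was at 179, 144, 243 and 251 against 5.42, 57.6, 134 and 99.9. Mybpc1, a myosin-binding protein, was at 1.69 to 3.93 in controls and 0.338 to 0.831 in Znrf3 cKO, and Raph1, an actin regulator, was at 6.57 to 8.03 and 2.64 to 4.23. For most of these genes the lowest library was PRVL78, in which steroidogenic transcripts were low too, and Raph1 was instead lowest in PRVL79.

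The remaining genes of the rule were lower in the same pattern. Epn3, an endocytic adaptor, was at 5.64 to 12.0 RPKM in controls and 0.0842 to 3.65 in Znrf3 cKO, and Aifm3 was at 13.2 to 21.5 and 0.906 to 9.47. Susd3, Tmem52, Nat8f5, Mmd2, Pla2g2f, Myo1a, Gpha2 and Grin2c had log2 fold changes from -1.87 to -1.39, and from -1.36 to -0.57 without PRVL74 and PRVL78. Ibsp, for a bone matrix sialoprotein, was chosen after its values were seen. It was at 31.8, 39.3, 8.89 and 7.04 in controls and 0.111, 8.15, 0.1797 and 0.0777 in Znrf3 cKO, so that PRVL79 alone overlapped.

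Chromaffin cell transcripts overlapped at all 14 genes, with a median log2 fold change of -0.62, and -0.55 without PRVL74 and PRVL78. Th, the first enzyme of catecholamine synthesis, was at 1216, 431, 371 and 202 RPKM in controls and 349, 307, 154 and 205 in Znrf3 cKO. Pnmt was at 1103, 109, 105 and 75.9 against 13.5, 29.3, 44.1 and 84.4, low in PRVL78 although Th was not. Summed over the list, controls ranged from 4422 to 16920 and Znrf3 cKO from 2588 to 7465.

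Markers of tissue around the gland varied between libraries of the same group. Of 10 adipocyte genes 0 separated. Ucp1, the uncoupling protein of brown fat, was at 2.27, 48.4, 0.485 and 73.3 RPKM in controls and 50.4, 0.604, 312 and 0.360 in Znrf3 cKO. Adipoq, a secreted product of fat, was at 24.2 to 59.8 and 41.8 to 169, and the summed level of the list was 210 to 559 in controls and 356 to 1799 in Znrf3 cKO. Fat transcripts were thus highest in PRVL78 and PRVL80, and their part in the values of Fabp5, Lipa, Retnla, C3 and Pnpla3 was not tested. Liver transcripts were present in PRVL78 alone, with Alb at 67.1, the major urinary protein Mup7 at 36.0 (its family members are close copies) and Apoa1 at 19.4, and Alb was at 0.212 or below in the other knockouts. Of 15 capsule and fibroblast genes 0 separated, with a median of 0.88, and 0.32 without PRVL74 and PRVL78. Col1a1, a fibrillar collagen, was at 4.13 to 11.9 in controls and at 72.4 in PRVL78 and 8.67 to 18.9 in the other knockouts. No endothelial (0 of 10), erythrocyte (0 of 5) or nerve and glia gene (0 of 8) separated, and 1 of 9 granulocyte and mast cell genes did (Kit). Leaving out PRVL74 and PRVL78, 3 endothelial genes lay below and 4 granulocyte and mast cell genes above, where 8.09% and 8.34% of all genes did.

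Genes of the WNT pathway did not separate by genotype, with 0 of 28 above or below (2 each without PRVL74 and PRVL78) and a median log2 fold change of 0.00. Axin2, a direct target of the pathway, was at 5.64, 11.5, 13.3 and 12.4 RPKM in controls and 8.18, 13.7, 9.67 and 10.3 in Znrf3 cKO (log2 fold change 0.01 ± 0.26), and Lef1 was at 0.672 to 1.37 and 0.801 to 1.33. A change of Axin2 of the size of its SE could not be detected with these libraries. Znrf3 was at 1.70, 4.03, 4.81 and 5.76 in controls and 2.60, 8.86, 11.4 and 8.12 in Znrf3 cKO. It overlapped through PRVL78, and a value over the whole gene does not isolate the deleted exons, so it is no check of the deletion.

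The proliferation list also came from general knowledge, chosen with earlier results of these data known, so its count is no independent test. Of 19 proliferation genes tested, 7 lay above all controls (Mki67, Top2a, Aurkb, Bub1, Tpx2, Kif11 and Foxm1), 0 lay below and 12 overlapped, with a median log2 fold change of 0.39. The count was 11 without PRVL74 and PRVL78, where 8.34% of all genes lay above, with a median of 0.46, and 12 after scaling to the same sum. Mki67, the Ki67 antigen of cycling cells, was at 0.888, 0.901, 0.936 and 0.940 RPKM in controls and 1.98, 1.52, 1.97 and 2.60 in Znrf3 cKO. The controls were tightly grouped, and every knockout library was above them. The log2 fold change was 0.64 ± 0.13 (adjusted p = 0.734 in limma and 0.168 in the fit over all males). Top2a, a topoisomerase of dividing cells, was at 0.545, 0.681, 0.737 and 0.610 against 1.14, 0.951, 1.199 and 1.98. PRVL81 was the highest knockout for Mki67 and Top2a, and its mean over the list, 1.58 log2 units, was above the 0.92 to 1.14 of the other knockouts and the 0.79 to 0.95 of controls. PRVL79 was below PRVL74 in this mean.

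**Figure D4:**
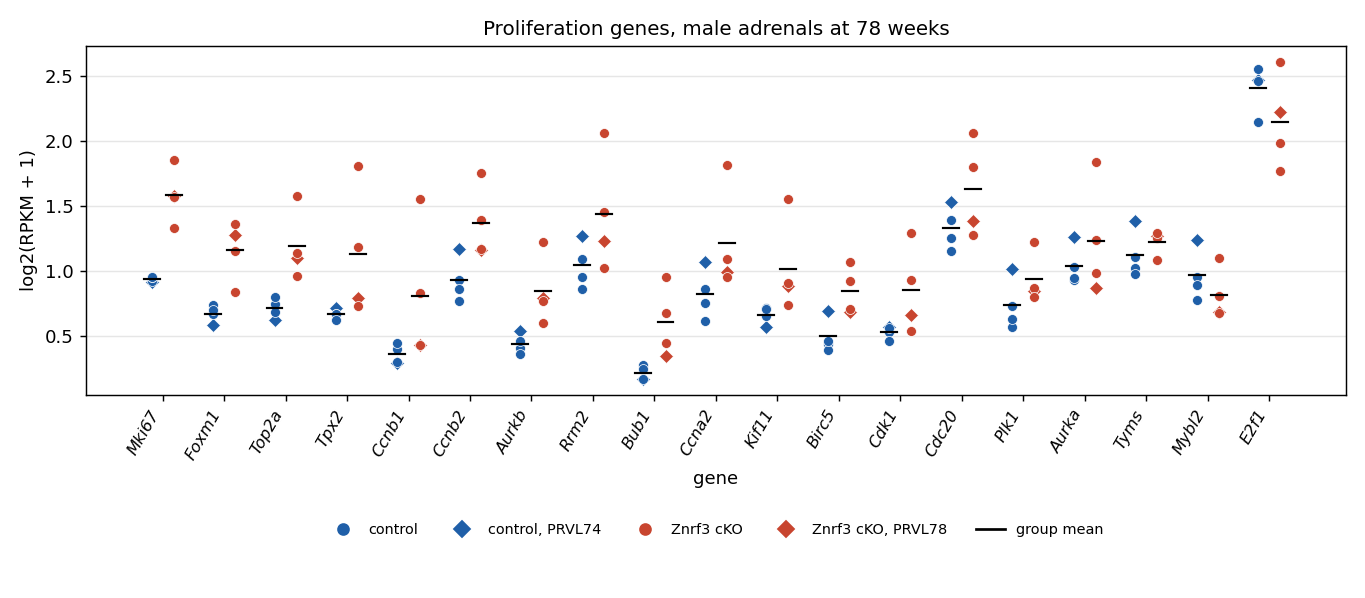
Level in log2(RPKM + 1) of 19 proliferation genes in each library; blue points are controls, red points Znrf3 cKO, diamonds mark PRVL74 and PRVL78, and bars are group means. Mki67 at the left shows a tight blue group (0.888 to 0.940 RPKM) below all red points, and E2f1 and Mybl2 at the right have the lowest fold changes.

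Of 33 genes of DNA replication 1 lay above all controls, Pcna, the sliding clamp of DNA polymerase, at 14.4 to 18.8 RPKM in controls and 21.3 to 30.3 in Znrf3 cKO, and the median was 0.05. Without PRVL74 and PRVL78, 7 lay above and 0 below, where 8.34% and 8.09% of all genes did, with a median of 0.13. The mean level of the list was 2.83 log2 units in PRVL74 and 2.591 to 2.639 in the other controls, against 2.651 to 2.94 in Znrf3 cKO, so the overlap of these means came from PRVL74. The larger list of cell cycle and DNA replication gave 1 of 55 with a median of 0.07, and 8 above and 1 below without both libraries. E2f1, a transcription factor of the G1 to S transition, was at 3.42 to 4.85 in controls and 2.40 to 5.09 in Znrf3 cKO.

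Senescence genes separated at 2 of 13 (Lmnb1 and Igfbp3, both higher), with a median of 0.04. Cdkn1a, for the cell cycle inhibitor p21, was at 8.84, 10.6, 10.2 and 6.19 RPKM in controls and 9.21, 7.07, 12.8 and 8.07 in Znrf3 cKO, and Cdkn2a, for p16, was at 2.69, 4.07, 2.30 and 1.51 against 0.409, 3.21, 4.39 and 4.80. Glb1, the source of senescence-associated beta-galactosidase, was at 8.10 to 11.4 and 5.14 to 13.4. Neither inhibitor nor Glb1 separated, and Lmnb1, the lamin that is lost in senescent cells, was at 3.07 to 4.01 in controls and 4.71 to 5.25 in Znrf3 cKO. Igfbp3, a secreted binder of insulin-like growth factors, was at 20.0, 34.6, 37.2 and 35.7 against 154, 89.2, 49.0 and 51.3. Of the secretory list (SASP) 3 of 39 lay above (Igfbp3, Mmp14 and Mmp3) and 2 below (Mmp13 and Pigf), and of the SenMayo list 8 of 94 above and 4 below (4 and 4, and 13 and 9, without PRVL74 and PRVL78). For these and the other counts in this paragraph, the shares of all genes were 2.25% above and 2.04% below, and 8.34% and 8.09% without both libraries. Il1a was at 0.340 or below in controls and 0.217 to 2.31 in Znrf3 cKO, Ccl2 at 0.904 to 2.99 and 1.30 to 9.43, Tnfrsf1b at 4.72 to 7.45 and 5.69 to 28.4, Csf1 at 6.18 to 7.87 and 6.57 to 16.6, Cxcl2 at 0.173 or below and 0.387 or below, and Cx3cl1 at 14.4 to 26.1 and 15.8 to 27.2. Each overlapped, and apart from Cx3cl1, which was highest in PRVL79, the highest value was in PRVL78. Among cytokines 6 of 93 lay above and 1 below, and 17 and 2 without both libraries. Among immediate early and stress genes Atf3 lay above all controls and Jun below, and 10 of 12 overlapped. Without PRVL74 and PRVL78, 6 lay above and 1 below, with a median log2 fold change of 0.57 in place of 0.31. PRVL74 had the highest mean level of this list, 4.61 log2 units against 2.77 to 3.62 in the other controls.

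At 12 weeks there were 5 control and 4 Znrf3 cKO libraries of males. At 12 weeks 13 of the 18 genes of fused and lipid-laden macrophages rose (807 of 19229 genes, 4.20%, rose and 211, 1.10%, fell), with a median log2 fold change of 1.97 against 1.26 at 78 weeks. The medians were 0.65 and 0.61 for general macrophage markers, 0.55 and 0.54 for phagocytosis signalling and 0.29 and 0.46 for the LM22 list, at 12 and 78 weeks. Without PRVL74 and PRVL78 the medians at 78 weeks were 0.16, 0.11 and 0.16 in the same order, and 0.76 for fused and lipid-laden macrophages. The LM22 medians cover 60 genes at 12 weeks and 66 at 78 weeks, so they are not of the same set. The differences in medians between ages were not tested. Gpnmb was at 0.0236 to 2.01 RPKM in 12-week controls and 67.5 to 462 in Znrf3 cKO (log2 fold change 6.93 ± 0.51, adjusted p = 9.54e-04). The difference between ages, tested as a genotype by age term in limma over 17 libraries, was -2.51 ± 1.07 for Gpnmb (adjusted p = 0.602) and -3.68 ± 0.77 for Mmp12 (adjusted p = 0.250). Neither passed, so a smaller effect at 78 weeks is not shown for these genes. Mmp12 had been at 20.5 to 133 in 12-week knockouts and 0.557 to 3.37 in their controls.

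By that test 1 of 21065 genes (0.00475%) differed between ages, with 1680 (7.98%) at an unadjusted p under 0.05. It was Them6, a member of the thioesterase superfamily. At 12 weeks Them6 was at 5.95 to 8.81 RPKM in controls and 11.2 to 12.5 in Znrf3 cKO, and at 78 weeks it was at 9.32, 9.36, 7.51 and 6.95 in controls and 3.38, 4.51, 5.07 and 2.97 in Znrf3 cKO. The knockouts lay above controls at the younger age and below them at the older (difference -1.49 ± 0.20, adjusted p = 0.029). Calls by this test ranged from 0 to 36 when single libraries were left out, 36 without PRVL78 and 12 without replicate 4 of the 12-week knockouts, and were 22 without PRVL74 and PRVL78, Them6 and Mmp12 among them. They were 0 without any 1 of 8 libraries (PRVL75, PRVL76, PRVL81, replicates 2, 3 and 4 of the 12-week controls and replicates 2 and 3 of the 12-week knockouts), so the call of Them6 rested on each of these. Mki67 was at 0.967 to 1.45 in 12-week controls and 0.539 to 1.17 in Znrf3 cKO, and its difference between ages was 0.86 ± 0.17 (adjusted p = 0.208). Of the 16 proliferation genes tested at 12 weeks, 0 had an adjusted p under 0.05 in limma, with a median log2 fold change of -0.07. Over all genes 4.20% rose and 1.10% fell at that age, so a count of 0 among 16 does not show equal levels. Of the 773 genes that rose at 12 weeks and were tested at 78 weeks, 108 lay above all controls at 78 weeks, 2 below, and 663 overlapped, with a median of 0.43. Of the 210 that fell at 12 weeks, 21 lay below all controls and 0 above. Among all genes tested at 78 weeks, 2.25% lay above all controls and 2.04% below.

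**Figure D5:**
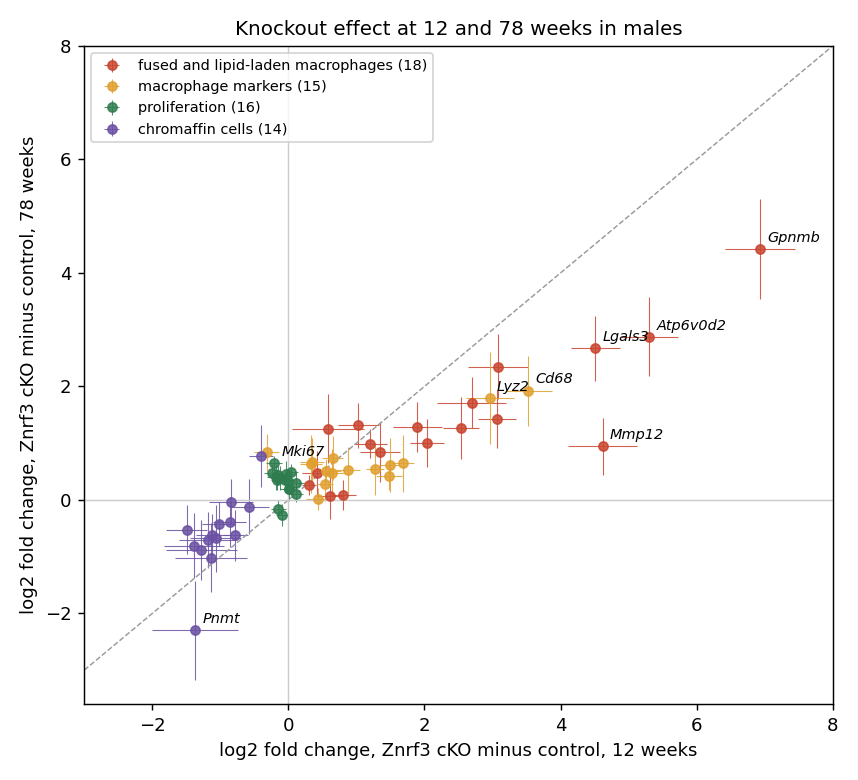
Log2 fold change of Znrf3 cKO against control at 12 weeks (x axis) and 78 weeks (y axis) for genes of 4 lists, with SE bars; the dashed line marks equal values. Gpnmb, Lgals3, Atp6v0d2, Cd68 and Mmp12 lie to the right of the line, and proliferation genes gather near 0 on the x axis and mostly above 0 on the y axis.

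Akr1d1, the steroid 5-beta-reductase, had one of the largest contrasts between libraries and was chosen after its values were seen. It was at 2.61, 0.613, 53.1 and 2.13 RPKM in controls and 0.150, 82.8, 276 and 141 in Znrf3 cKO. The 3 knockouts other than PRVL78 were above all controls, and PRVL78 was below them all. Gm7463, an annotated gene within the span of Akr1d1 on chromosome 6 (37541414 to 37541960, mm10), was at 1.24, 1.01, 12.8 and 1.64 against 1.21, 34.5, 96.3 and 95.6, with the control PRVL76 raised at both. Akr1d1 was at 0.281 or below in each of the 9 libraries of 12 weeks. Its log2 fold change at 78 weeks was 2.98 ± 1.75 (adjusted p = 0.869 in limma), and 4.52 without PRVL74 and PRVL78.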

How the data were processed

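Poly(A) RNA of whole adrenals was sequenced with a stranded TruSeq kit. The authors trimmed reads (cutadapt 3.2), aligned them to mm10 (HISAT2 2.2.1), counted them per gene with SummarizeOverlaps and deposited the results as RPKM, which divides reads by exon length and library size. Reads were recovered as the deposited RPKM times exon length (GENCODE M21). Where fewer than 1000 resulted, 98.5 to 98.7% were whole numbers, within a tolerance of 0.02.

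A gene was tested if either group averaged 0.5 RPKM or more. Values were compared as log2(RPKM + 1) by limma 3.58.1 (trend) in R 4.3.3, a scale that understates changes of low genes, with Benjamini-Hochberg adjustment and a threshold of 0.05. At 78 weeks there were 4 libraries a group, and ± is the SE of the log2 fold change. Lists came from the study's supplement (matched by symbol) and from general knowledge. Named genes were fixed genes, up to 15 a direction with the largest fold change among non-overlapping genes with a group mean of at least 5 RPKM (predicted genes left out), the 2 most abundant members of each list, up to 8 genes a library and side with the widest gap to the other libraries, and genes that differed between ages. Other list members named, and Ibsp, Akr1d1, Gm7463, Kcng4, Raph1, Mybpc1, Nr6a1, Gm48116 and the vomeronasal genes, were chosen after their values were seen. Members and lists were chosen with earlier results of these data known. Alternatives were another pseudocount, no filter, a fit over all males, library weights, 2 scalings, robust variance, and libraries left out; voom on recovered reads, and the counts of non-overlapping genes under other scalings or without PRVL74 and PRVL78, were added after seeing the data. The fits were run on simulated data with independent noise for each gene and library. Those data held no shift shared across genes, as in PRVL74 and PRVL78, so they are no check for such libraries. Plots used Python 3.11.15 with matplotlib 3.10.9.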

Additional observations from a re-analysis of the deposited data

Results flagged for a closer look

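Of 206 sets of 4 libraries checked with Dixon's test (mean level of each list, levels of named genes, depth measures), 17 had a library far from the other 3, in 9 cases PRVL74 and in 6 PRVL78; chance alone gives about 1 in 20, and the sets share libraries. PRVL78 was highest among Znrf3 cKO for the mean log2 level of DAMPs (3.61), apoptotic cell clearance (3.88), lysosome (5.49) and neighbouring organs (4.07), was highest for Adgre1 (4.63) and lowest for Pla2g2f (2.35). PRVL74 was highest among controls for granulocytes and mast cells (2.73), neighbouring organs (2.03), the sum of RPKM (889905), Scgn (3.97), Nat8f5 (3.67) and Gpha2 (4.91), and lowest for Retnla (1.69), Ddx3y (3.35) and Xist (0.01, near the floor in all libraries). In PRVL74 the list of neighbouring organs summed to 50.3 RPKM, of which Cela1 held 43.7, and Alb was at 0.145. Cela1 was also at 27.9 to 41.2 in the male libraries of 12 weeks. For Pik3c2g, PRVL76 was highest among controls (0.62) and PRVL81 among Znrf3 cKO (0.10).

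The effect of the knockout on Them6 differed between ages, by -1.49 log2 units at 78 against 12 weeks.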

How the results depend on the processing

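The count of 0 genes called at 78 weeks was also 0 with a pseudocount of 0.1, no filter, both rescalings, robust variance, voom with and without PRVL74 and PRVL78, and without any 1 library (0 to 0). It was 312 in one fit over all 33 male libraries, 1 with weights per library and 2 with voom and weights per library (Kcng4 and Cxcr1). The count of 1 for the difference between ages was 2 without the filter, 193 with weights per library, 22 without PRVL74 and PRVL78, and 0 to 36 without 1 library. Non-overlapping genes numbered 466 higher and 421 lower; without both odd libraries 1725 and 1673, without PRVL74 1241 and 1244, without PRVL78 715 and 629, where fewer libraries make overlap less likely by construction; after scaling to the same sum 414 and 135. All 36 single fold changes examined kept their direction under the alternatives run. For genes chosen because their libraries did not overlap, such as Gpnmb and Ccl21a, leaving out or weighting libraries cannot reverse the direction, so this is no check of them. In the fit over all males 21 passed, and 1 (Kcng4) passed with each kind of library weight. No paired analysis was possible because the labels give no number shared between groups. With 4 libraries a group and 1 atypical in each, a p that misses the threshold does not show equal levels.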

Other observations

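Transcripts of vomeronasal receptor genes near the starts of chromosomes 4 and 5, at very low levels, were higher in 3 of the 4 Znrf3 cKO libraries. Vmn1r3 (chromosome 4) was at 1.21, 1.81 and 1.43 RPKM in PRVL79, PRVL80 and PRVL81, at 0.0226 in PRVL78 and at 0.135 or below in controls; Vmn1r2 was at 0.989, 1.46 and 0.999 in the same libraries and at 0.141 or below elsewhere; V1rg10 (chromosome 5) was at 0.762, 0.826 and 0.743 and at 0.0968 or below. These genes have close copies, so their reads may be shared. Gm48116 (chromosome 13) was also highest in these 3 libraries, at 1.75, 2.50 and 2.88 against 0.687 or below. These genes were chosen after their values were seen.

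In PRVL81 the cyclin-dependent kinase inhibitor Cdkn1c was at 118 RPKM, against 17.9 to 43.0 in the other knockouts and 15.1 to 40.2 in controls, although proliferation genes were highest in the same library. Nr6a1, an orphan nuclear receptor, was at 4.74, 6.30, 6.84 and 12.3 in Znrf3 cKO and at 1.42, 1.54 and 2.17 in 3 controls, with PRVL74 at 5.39.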
